A study of Mus musculus with 9 samples.

Results

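The inhibitory and Fc receptors of B cells are described here as 10 genes, *Cd22*, *Cd72*, *Siglecg*, *Ptpn6*, *Fcgr2b*, *Fcer2a*, *Fcmr*, *Fcamr*, *Fcrl1* and *Fcrla*. They were taken by gene symbol from a table of 17596 genes, in which all 10 had a row. All 10 also passed the filter on low values, which asked for an average of 1 FPKM or more across the 9 libraries and left 10823 genes for testing. FPKM are fragment counts divided by transcript length and by the mapped fragments of the library, so levels of different genes can be set side by side.

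RNA was sequenced from primary splenic B cells of mice that carried Mb1Cre alone (control) or Mb1Cre with both copies of *Mct1* floxed (Mct1f/fMb1Cre). *Mct1* is the common name of *Slc16a1*, which encodes a transporter of lactate and pyruvate. Cells were taken without treatment (day 0) or after 3 days in culture with LPS at 10 μg/ml together with IL-4 at 50 ng/ml (day 3). There were 2 control and 2 Mct1f/fMb1Cre libraries on day 0, and 2 control and 3 Mct1f/fMb1Cre libraries on day 3. The mice were on a C57BL/6J background, and mutants were used at 6 to 8 weeks of age. Cre was driven by *Mb1* (*Cd79a*) in the B lineage of both genotypes, so that Cre was shared by control and mutant cells while the floxed allele was not. The comparison of days joins LPS, IL-4 and the time in culture, which cannot be told apart. Nothing in the labels says which libraries came from separate mice, so p-values measure the spread between libraries, which may be technical.

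Antigen receptor signalling in B cells is held in check by surface receptors with an immunoreceptor tyrosine-based inhibitory motif, or ITIM. Once phosphorylated, this motif recruits phosphatases that reverse the work of the receptor's kinases. CD22, Siglec-G and CD72 recruit the tyrosine phosphatase SHP-1, the product of *Ptpn6*, whereas the IgG receptor encoded by *Fcgr2b* mainly recruits the lipid phosphatase SHIP-1. Fc receptors bind the constant part of antibodies and tell the cell which classes are present around it: IgG for *Fcgr2b*, IgE for *Fcer2a* (CD23), IgM for *Fcmr*, and IgM and IgA for *Fcamr*. *Fcrl1* encodes a surface relative of these receptors with activating motifs, and *Fcrla* an intracellular relative that stays in the secretory pathway.

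Before the members are described, the libraries themselves need a short account. *Slc16a1* stood at 22.6 and 23.0 FPKM in the control libraries of day 3 and at 10.8, 9.81 and 9.50 FPKM in the Mct1f/fMb1Cre libraries of that day, and it was low on day 0 in both genotypes (3.71 to 4.33 FPKM). *Ddx3y*, a Y-linked gene, was at 0.24 FPKM or less in 3 of the 4 libraries of day 0, at 31.1 FPKM in Mct1f/fMb1Cre replicate 1 of day 0, and at 14.7 to 16.9 FPKM in all 5 libraries of day 3. In control cells the day and the sex of the mice therefore cannot be told apart, whereas both genotypes carried *Ddx3y* RNA on day 3. The 8 B cell markers, among them *Cd22*, which is also 1 of the 10 genes, were all detected. They summed to 4415 to 4858 FPKM on day 0 and to 2218 to 2309 FPKM on day 3. The 12 myeloid markers, such as *Lyz2*, *S100a9* and *Fcer1g*, summed to 1232 to 2120 FPKM on day 0, to 48.0 to 48.8 FPKM in control cells on day 3 and to 59.8 to 64.2 FPKM in Mct1f/fMb1Cre cells on day 3, with none at 0 in every library of a group. The 8 T and NK cell markers summed to 58.8 to 71.0 FPKM on day 0 and to 6.54 to 8.41 FPKM on day 3, and the 8 erythroid and platelet markers to 131 to 240.2 FPKM and to 6.85 to 10.2 FPKM, with *Hbb-bs* at 0 in all 5 libraries of day 3. The 6 markers of marginal zone B cells summed to 677 to 718 FPKM and to 268 to 312 FPKM. The 6 plasma cell markers summed to 185 to 282 FPKM on day 0 and, on day 3, to 457 to 473 FPKM in control and 379 to 408 FPKM in Mct1f/fMb1Cre cells. Sums over all genes were 477079 to 491459 FPKM on day 0 and 547355 to 563586 FPKM on day 3. Read depth is unknown, because the low values were not multiples of a common unit.

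In control cells of day 0 the 10 genes covered a wide range of levels. *Fcmr* was the most abundant at 1003 ± 27.9 FPKM (mean ± SD, n = 2), rank 85 of all 17596 genes, and *Fcamr* the least at 8.61 ± 0.608 FPKM. Between them the order was *Ptpn6*, *Fcer2a*, *Cd22*, *Fcrla*, *Siglecg*, *Cd72*, *Fcrl1* and *Fcgr2b*, and the ranges of the 2 libraries did not overlap between neighbours in this order. In Mct1f/fMb1Cre cells of day 0 the ranges of *Fcrla*, *Siglecg* and *Cd72* overlapped. On day 3 the order was different. *Fcer2a* came first in both genotypes, followed by *Cd22*, *Ptpn6*, *Fcgr2b* and *Cd72*, while *Fcmr* had moved to rank 3173 in control cells and 2295 in Mct1f/fMb1Cre cells. *Siglecg* and *Fcrl1*, neighbours in the control order of day 3, overlapped, and no neighbours overlapped in Mct1f/fMb1Cre cells.

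**Figure D1:**
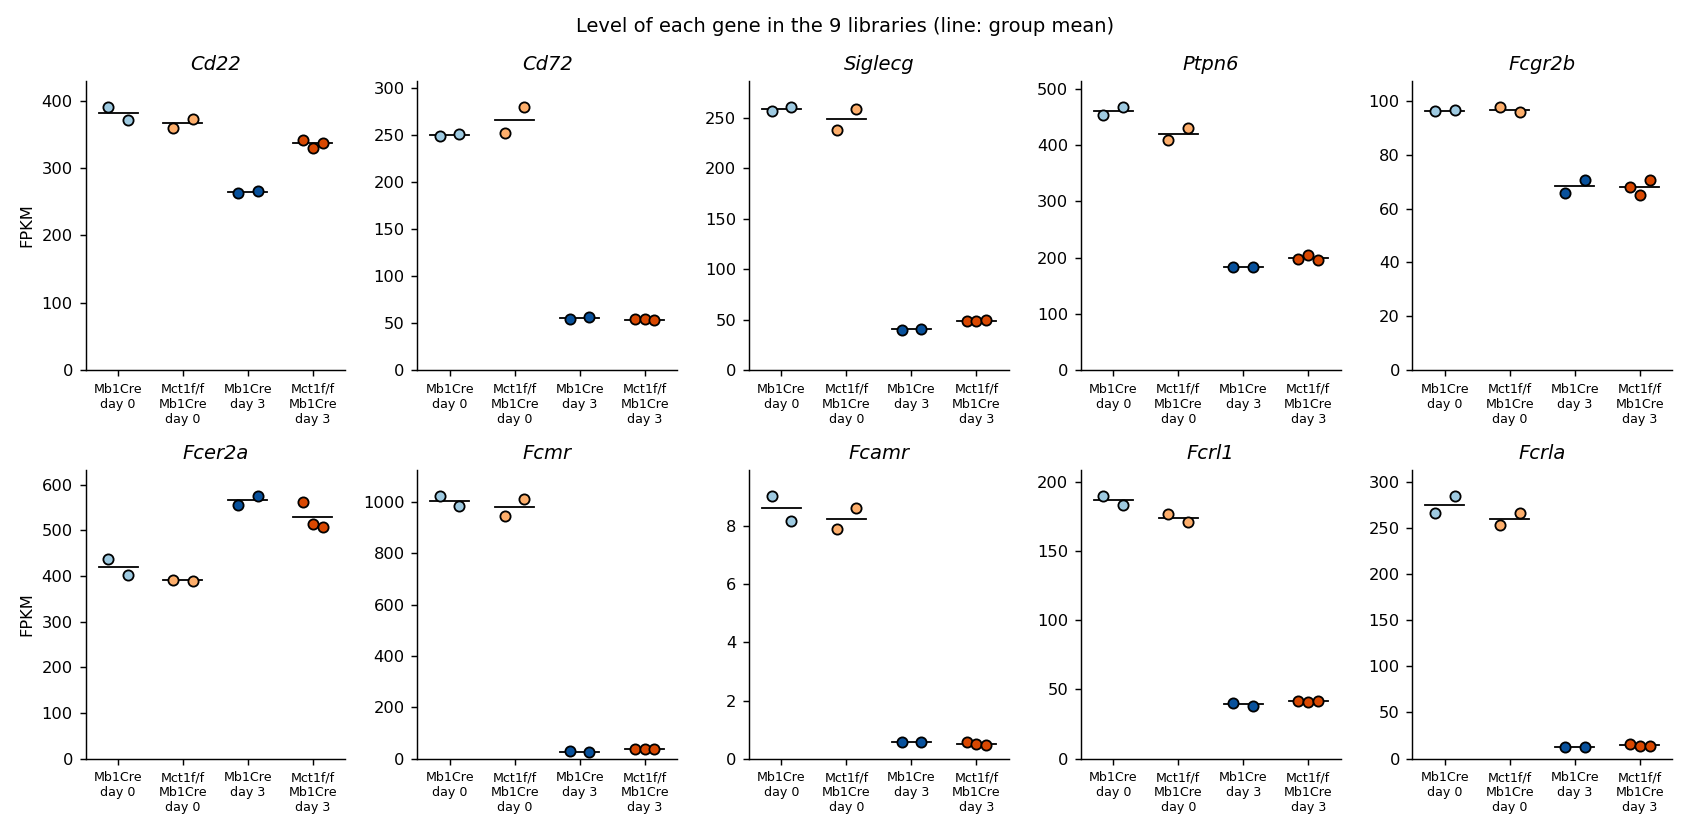
FPKM (linear axis from 0, scaled to each gene) of the 10 genes in the 9 libraries, by genotype and day. Points are libraries and lines are group means. *Fcmr*, *Fcrla* and *Fcamr* lie near 0 on day 3, *Fcer2a* is higher on day 3 than on day 0, and the 3 Mct1f/fMb1Cre points of *Cd22* on day 3 (330.2 to 341 FPKM) sit above both control points (262 and 266 FPKM).

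The first comparison asked how activation changed these genes in each genotype, and most of them fell. Called means an adjusted p under 0.05 (limma, Benjamini-Hochberg over all tested genes) together with a log2 fold change above 0.5 in size, on the scale of log2(FPKM + 1). In control cells 8 of 10 fell, where 33% of all tested genes did, and in Mct1f/fMb1Cre cells 8 of 10 fell, where 33.2% of all tested genes did. Both sets held *Fcmr*, *Fcrla*, *Siglecg*, *Fcamr*, *Fcrl1*, *Cd72* and *Ptpn6*, with *Cd22* as the 8th gene in control cells and *Fcgr2b* as the 8th in Mct1f/fMb1Cre cells. By adjusted p alone, 1 of 10 rose in each genotype, *Fcer2a*, where 37% of all genes rose in control cells and 36.4% in Mct1f/fMb1Cre cells. The median log2 fold change over all tested genes was -0.12 in control and -0.14 in Mct1f/fMb1Cre cells. Because the cells were sequenced in bulk, fewer cells that express a gene and less RNA of it per cell cannot be told apart.

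**Figure D2:**
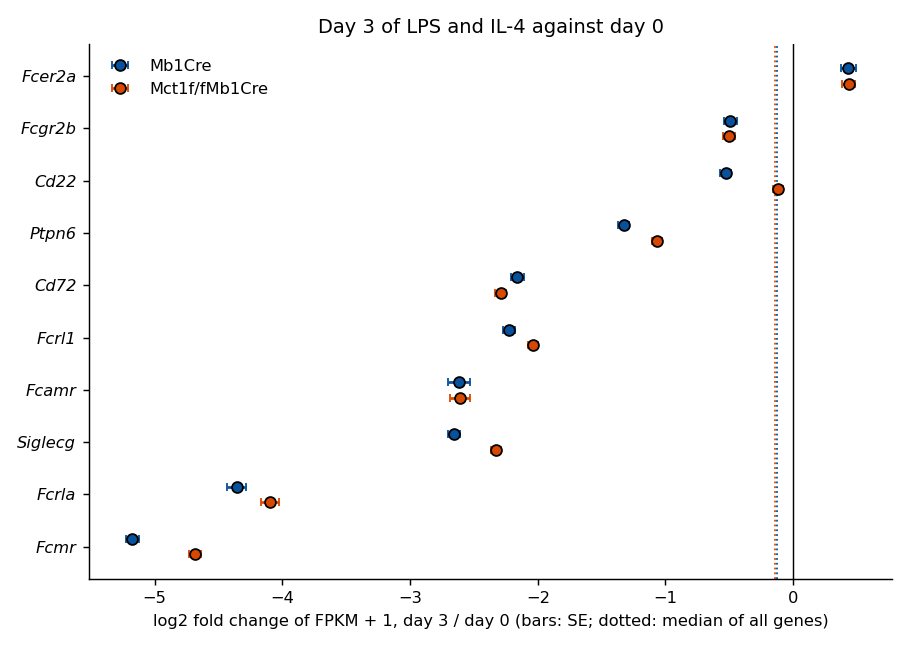
Log2 fold change of FPKM + 1 from day 0 to day 3 for each gene in Mb1Cre (blue) and Mct1f/fMb1Cre (orange) cells. Points are estimates, bars are standard errors and dotted lines are the medians of all tested genes. The estimates run from -5.17 for *Fcmr* to 0.43 for *Fcer2a*, and *Cd22* lies at -0.53 in Mb1Cre and at -0.12 in Mct1f/fMb1Cre cells.

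Among the Fc receptors, *Fcmr* changed the most. It read 1022 and 983 FPKM in the control libraries of day 0 and 944 and 1012 FPKM in those of Mct1f/fMb1Cre, against 28.0 and 25.6 FPKM in control cells and 37.7, 37.3 and 36.2 FPKM in Mct1f/fMb1Cre cells on day 3. Every library of day 0 was thus far above every library of day 3, and on day 3 the genotypes did not overlap. The level fell 37.4-fold in control cells (log2 fold change -5.17 ± 0.05 SE, adjusted p = 4.76e-13) and 26.4-fold in Mct1f/fMb1Cre cells (-4.68 ± 0.05 SE, adjusted p = 4.99e-13; limma). Of the level of day 0, 2.67% was left in control and 3.79% in Mct1f/fMb1Cre cells.

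*Fcamr*, whose product also binds IgM, followed the same direction from a low start. It read 9.04 and 8.18 FPKM in control and 7.90 and 8.62 FPKM in Mct1f/fMb1Cre cells on day 0, and 0.46 to 0.57 FPKM in all 5 libraries of day 3. The days did not overlap and the genotypes did. Its log2 fold change was -2.62 ± 0.09 SE in control and -2.61 ± 0.08 SE in Mct1f/fMb1Cre cells, a value that the added 1 FPKM makes smaller: the ratio of the means was 15.2-fold and 16.1-fold. *Fcamr* and *Fcmr* are neighbours on chromosome 1 (GRCm38), at chr1:130800902-130814740 and chr1:130865669-130880791 on the plus strand, with *Pigr*, the epithelial transporter of polymeric IgA and IgM, between them. *Pigr* did not pass the filter, and its mean in control cells was 1.12 FPKM before and 0.115 FPKM after activation.

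*Fcer2a* was the member that rose. Control libraries went from 438 and 402 FPKM to 556 and 576 FPKM, and Mct1f/fMb1Cre libraries from 391 and 390.4 FPKM to 563, 514 and 508 FPKM. All 5 libraries of day 3 were above all 4 of day 0. The increase was 1.35-fold in each genotype (log2 fold change 0.43 ± 0.06 SE in control, adjusted p = 3.83e-05; 0.43 ± 0.05 SE in Mct1f/fMb1Cre, adjusted p = 1.66e-05; limma), which did not reach the fold limit. Relative to the median of all genes it was 0.56 and 0.57. The rise depends on the scaling of the libraries. After median-of-ratios scaling it was 0.64 in control and 0.65 in Mct1f/fMb1Cre cells, past the fold limit in both, and after quantile normalization it was 0.12 (adjusted p = 0.0782) and 0.22 (adjusted p = 0.00325; limma).

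The gene for CD23 lies at chr8:3681737-3694175 on the minus strand (GRCm38), and IL-4 is known to induce it through STAT6. A palindrome of the form TTCNNNNGAA, a spacing that STAT6 is known to bind, was therefore searched in the 250 bases before each start in RefSeq (GRCm38.p6). It was present in 6.95% of 32851 such windows and in those of 2 of the 10 genes, *Fcer2a* and *Fcamr*, and the 3-base spacing TTCNNNGAA in 8.30% of windows and in none of the 10 genes. In *Fcer2a* it stood at bases -168 to -159 before 1 of 3 annotated starts, and in *Fcamr* at bases -228 to -219. The windows are shown because these 2 genes share the letters and moved in opposite directions. Whether the letters act in either gene was not tested. Capitals mark the palindrome. The *Fcer2a* window is chr8:3690862-3691111, minus strand, between the exons of longer GENCODE transcripts, and the *Fcamr* stretch is chr1:130800654-130800703, plus strand.
Fcer2a: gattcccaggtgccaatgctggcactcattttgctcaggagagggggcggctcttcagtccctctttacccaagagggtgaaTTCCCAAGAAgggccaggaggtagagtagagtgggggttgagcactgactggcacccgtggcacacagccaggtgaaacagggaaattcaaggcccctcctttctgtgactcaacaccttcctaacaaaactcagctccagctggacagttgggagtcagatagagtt
Fcamr: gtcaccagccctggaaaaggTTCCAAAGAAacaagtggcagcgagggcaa

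*Fcgr2b*, the inhibitory IgG receptor, had a smaller log2 fold change than the 7 genes called lower in both genotypes. Levels were 96.4 and 96.6 FPKM in control and 97.8 and 95.9 FPKM in Mct1f/fMb1Cre cells on day 0, and 66.0 and 70.7 FPKM against 68.3, 65.1 and 70.6 FPKM on day 3. The 5 libraries of day 3 were all below the 4 of day 0, and within each day the genotypes overlapped. The log2 fold change was -0.49 ± 0.05 SE in control (adjusted p = 2.84e-06) and -0.50 ± 0.05 SE in Mct1f/fMb1Cre cells (adjusted p = 9.82e-07; limma), on either side of the fold limit of 0.5. *Fcgr3*, an activating receptor for the same antibody class found 74.6 kb away and abundant in myeloid cells, went from 30.6 to 1.95 FPKM in control cells, so that the ratio of *Fcgr2b* to *Fcgr3* rose from 2.87 to 3.50 on day 0 to 30.5 to 42.0 on day 3. Its transcript shares 166 of the 3495 words of 50 bases of *Fcgr2b*, and reads from these words cannot be assigned to either gene. The myeloid markers fell between the same libraries, and their part in the values of *Fcgr2b* on day 0 was not tested.

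*Fcrl1* and *Fcrla* both fell. *Fcrl1* read 189.7 and 183 FPKM in control and 177 and 171 FPKM in Mct1f/fMb1Cre cells on day 0, and 37.9 to 42.0 FPKM on day 3, a decrease of 4.77-fold and 4.18-fold (log2 fold change -2.23 ± 0.04 SE and -2.04 ± 0.04 SE). *Fcrla* read 266 and 284 FPKM in control and 252.6 and 266 FPKM in Mct1f/fMb1Cre cells on day 0, and 12.2 and 12.7 FPKM against 15.9, 13.2 and 13.7 FPKM on day 3. This was the second largest decrease among the 10 genes, 22.1-fold in control (-4.36 ± 0.08 SE) and 18.2-fold in Mct1f/fMb1Cre cells (-4.10 ± 0.07 SE). All 4 adjusted p-values were 8.35e-12 or lower (limma). *Fcrla* (chr1:170917576-170927583) and *Fcgr2b* (chr1:170958617-170976547) lie 31.0 kb apart on the minus strand, and their log2 fold changes in control cells were -4.36 and -0.49.

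The SHP-1 recruiting receptors differed among themselves. *Siglecg*, which with CD22 binds sialic acid on glycoproteins, read 257 and 261 FPKM in control and 238.5 and 259 FPKM in Mct1f/fMb1Cre cells on day 0, and 39.9 and 40.5 FPKM against 48.5, 48.3 and 49.5 FPKM on day 3. It fell 6.44-fold in control (-2.66 ± 0.05 SE) and 5.10-fold in Mct1f/fMb1Cre cells (-2.33 ± 0.04 SE). *Cd72*, a lectin-like receptor whose ligand is the semaphorin SEMA4D, read 249 and 251 FPKM in control and 253 and 279.9 FPKM in Mct1f/fMb1Cre cells on day 0, and 52.7 to 56.4 FPKM in the 5 libraries of day 3. It fell 4.53-fold and 4.97-fold (-2.16 ± 0.05 SE and -2.29 ± 0.05 SE), and these 4 values each had an adjusted p of 2.01e-11 or lower (limma). The *Cd72* transcript overlaps *Tesk1* on the opposite strand over 54.3% of its 50-base words, and whether the counting used strand is not given in the sources used here. The mean of *Tesk1* itself in control cells was 29.5 FPKM before and 7.42 FPKM after activation.

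*Cd22* kept more of its level than *Siglecg* and *Cd72*. Before activation the control libraries read 390.0 and 372 FPKM and those of Mct1f/fMb1Cre 359 and 373 FPKM. After it they read 262 and 266 FPKM in control and 341, 330.2 and 338 FPKM in Mct1f/fMb1Cre cells, so that the genotypes overlapped on day 0 and not on day 3. Control cells kept 69.3% of the level of day 0 (log2 fold change -0.53 ± 0.04 SE, adjusted p = 4.68e-07) and Mct1f/fMb1Cre cells 91.9% (-0.12 ± 0.04 SE, adjusted p = 0.0136; limma), which is short of the fold limit. The value in Mct1f/fMb1Cre cells depends on the processing, because it turned to 0.10 after median-of-ratios scaling and its adjusted p was 0.102 without Mct1f/fMb1Cre replicate 2 of day 0 (limma). In control cells it was -0.31 after median-of-ratios scaling, and without control replicate 1 of day 0 it was -0.49, both below the fold limit in size. The ratio of *Cd22* to *Siglecg*, which does not change when a library is multiplied by a single factor, went from 1.47 ± 0.066 to 6.57 ± 0.001 in control cells (SD, n = 2) and from 1.47 ± 0.047 (n = 2) to 6.90 ± 0.111 (n = 3) in Mct1f/fMb1Cre cells.

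*Cd22* lies at chr7:30865402-30880342 on the minus strand. Of the letters searched on both strands in the windows before the 10 genes, those of EBF1, a factor that sets the B cell programme, were found before *Cd22* (TCCCNNGGGA, 0.904% of all windows, at bases -49 to -40), and those of PU.1 (GAGGAAGT, 3.20% of all windows) before *Cd72* and *Fcrl1*. The stretches are shown because these genes encode B cell receptors that fell to different extents, 1.44-fold for *Cd22* and over 4-fold for the others in control cells. A part of these letters in the decreases was not tested. Capitals mark the letters found. The *Cd22* stretch is chr7:30879048-30879097 (minus strand), which lies inside the gene because GENCODE transcripts start farther upstream, the *Cd72* stretch chr4:43454648-43454695 (minus strand) and the *Fcrl1* stretch chr3:87376352-87376386 (plus strand), all in RefSeq on GRCm38.p6. In *Cd72* and *Fcrl1* the letters read as their reverse complement.
Cd22: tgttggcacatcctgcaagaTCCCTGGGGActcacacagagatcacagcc
Cd72: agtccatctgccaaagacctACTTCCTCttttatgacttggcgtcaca
Fcrl1: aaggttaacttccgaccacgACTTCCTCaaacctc

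*Ptpn6*, the phosphatase that these receptors share, fell less than *Siglecg* and *Cd72*. Its levels were 453 and 467 FPKM in control and 409 and 431 FPKM in Mct1f/fMb1Cre cells on day 0, and 182 and 183 FPKM against 198, 205 and 196 FPKM on day 3. The decrease was 2.52-fold in control (-1.33 ± 0.04 SE, adjusted p = 2.27e-10) and 2.10-fold in Mct1f/fMb1Cre cells (-1.07 ± 0.04 SE, adjusted p = 5.43e-10; limma). As *Ptpn6* is used by most blood cells, the myeloid sums given above apply to it as well, and their part in its level on day 0 was not tested. The ratio of *Cd22* to *Ptpn6* RNA was 0.828 ± 0.047 in control cells on day 0, 1.44 ± 0.009 in control cells on day 3 and 1.69 ± 0.063 in Mct1f/fMb1Cre cells on day 3.

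The make-up of the summed level of the 10 genes, which include the phosphatase gene *Ptpn6*, changed with these differences. The 10 genes summed to 3308 and 3369 FPKM in control cells on day 0 and to 1242 and 1269 FPKM on day 3, and to 1307 to 1368 FPKM in Mct1f/fMb1Cre cells on day 3. *Fcmr* gave 30.0% of the sum on day 0 and 2.14% on day 3 in control cells. *Fcer2a* gave 12.6% and 45.1%, so the ratio of the IgE receptor to the IgM receptor went from 0.418 ± 0.013 to 21.2 ± 1.84. In Mct1f/fMb1Cre cells of day 3 that ratio was 14.2 ± 0.616 (n = 3), with *Fcer2a* at 39.8% and *Fcmr* at 2.79% of the sum. *Cd22* made up 11.4% on day 0 in each genotype, 21.0% in control cells on day 3 and 25.3% in Mct1f/fMb1Cre cells on day 3.

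**Figure D3:**
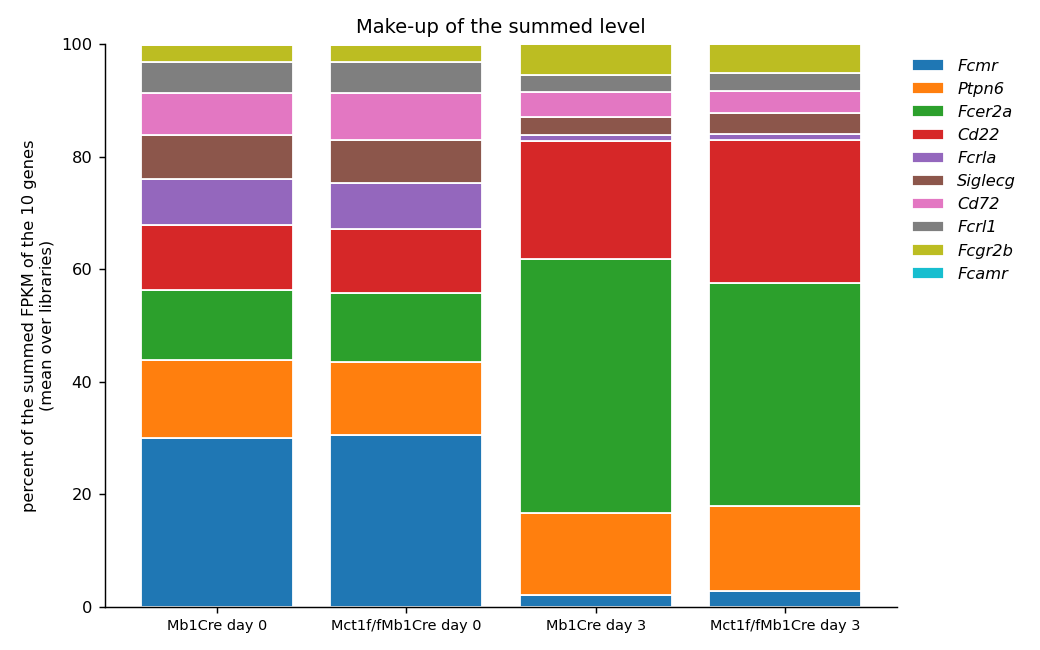
Percent of the summed FPKM of the 10 genes given by each gene (mean of the libraries of a group) in the 4 groups. The *Fcmr* segment goes from 30.0% to 2.14% and the *Fcer2a* segment from 12.6% to 45.1% between day 0 and day 3 of control cells, and the *Cd22* segment on day 3 is 21.0% in Mb1Cre and 25.3% in Mct1f/fMb1Cre cells.

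The next comparison asked whether the loss of *Mct1* altered these genes after activation. On day 3, *Fcmr*, *Cd22* and *Siglecg* were higher in Mct1f/fMb1Cre cells by adjusted p, and no member reached the fold limit as well. At an unadjusted p under 0.05, 5 of 10 were higher, the other two being *Ptpn6* and *Fcrla*, where 12.2% of all tested genes were. Thus 0 of 10 were called, where 2.42% of all tested genes were, and by adjusted p alone 3 of 10 were higher, where 6.03% of all genes were, and 0 of 10 lower, where 9.21% were. *Fcmr* was 38.3% higher (26.8 ± 1.70 against 37.1 ± 0.761 FPKM, log2 fold change 0.45 ± 0.05 SE, adjusted p = 2.05e-04). *Cd22* was 27.4% higher (264 ± 2.60 against 336 ± 5.47 FPKM, 0.35 ± 0.04 SE, adjusted p = 2.82e-04) and *Siglecg* 21.4% higher (40.2 ± 0.403 against 48.8 ± 0.663 FPKM, 0.27 ± 0.04 SE, adjusted p = 0.00173; SD with n = 2 and n = 3, limma). All 3 Mct1f/fMb1Cre libraries were above both control libraries for each of these genes, and each kept an adjusted p under 0.05 in all 19 alternatives that could change it, the highest being 0.0255 for *Siglecg*.

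The other members of day 3 did not pass the test. *Ptpn6* was 9.24% higher in Mct1f/fMb1Cre cells (0.13 ± 0.04 SE, adjusted p = 0.0583), *Fcrla* 14.5% (0.18 ± 0.07 SE, adjusted p = 0.113) and *Fcrl1* 6.42% (0.09 ± 0.04 SE, adjusted p = 0.184; limma). Log2 fold changes were -0.0080 ± 0.05 SE for *Fcgr2b*, -0.04 ± 0.05 SE for *Cd72*, -0.05 ± 0.08 SE for *Fcamr* and -0.10 ± 0.05 SE for *Fcer2a*, with adjusted p-values of 0.26 or higher. Without regard to the test, the groups did not overlap in 6 of 10 genes that were higher in Mct1f/fMb1Cre cells, where 21% of all tested genes were, and in 1 of 10, *Cd72*, that was lower, where 26.1% were. The myeloid sum was also higher in Mct1f/fMb1Cre than in control cells on day 3 (59.8 to 64.2 against 48.0 to 48.8 FPKM), with *Lyz2* at 18.2 and 10.8 FPKM. In the myeloid list the genes that passed the test were higher. These were *Lyz2* (log2 fold change 0.71, adjusted p = 0.0015), *Adgre1* (0.68, adjusted p = 4.25e-04) and *Fcer1g* (0.34, adjusted p = 0.0152; limma). *Adgre1* was low, at 0.51 FPKM in control and 1.42 FPKM in Mct1f/fMb1Cre cells. *S100a9* (-0.82), *S100a8* (-0.32), *Fcgr4* (-0.05) and *Csf3r* (-0.05) were below 0, none of them with an adjusted p under 0.05 (limma). *S100a9* and *S100a8* averaged 1.6 FPKM or less in either genotype. The plasma cell sum was lower (379 to 408 against 457 to 473 FPKM), with *Irf4* at -0.49 (adjusted p = 5.54e-05) and *Jchain* at -0.47 (adjusted p = 0.0377; limma). The plasma cell list did not move as a whole. *Xbp1* was at -0.11, whereas *Prdm1* (0.19) and *Sdc1* (0.17) were above 0, none of them with an adjusted p under 0.05 (limma). The marginal zone sum was 268 to 312 FPKM against 268 FPKM in both control libraries. Most of it was *Plac8*, at 224 to 267 FPKM against 231 and 234 FPKM. Higher by adjusted p were *Dtx1* (0.48, adjusted p = 0.00107), *S1pr3* (0.38, adjusted p = 0.00166) and *Cr2* (0.32, adjusted p = 0.0453; limma). *Plac8* (0.08), *Cd9* (0.08) and *Cd1d1* (0.0028) did not pass the test. *Irf4*, *Dtx1* and *S1pr3* were named after their values were seen, and the part of these markers in the differences of the members was not tested.

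**Figure D4:**
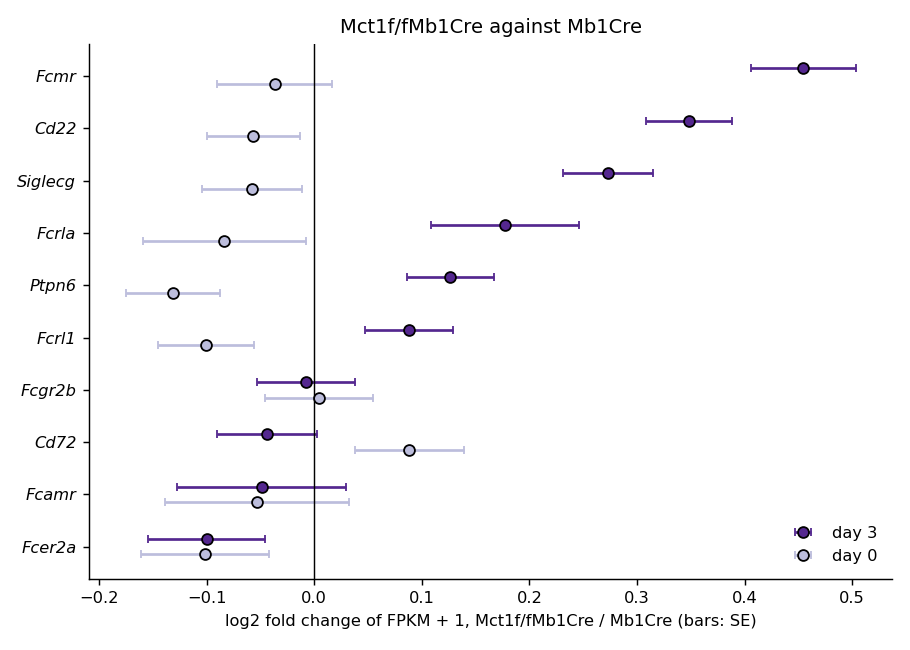
Log2 fold change of FPKM + 1 of Mct1f/fMb1Cre over Mb1Cre cells for each gene on day 3 (dark) and day 0 (light). Points are estimates and bars are standard errors. On day 3 *Fcmr* (0.45), *Cd22* (0.35) and *Siglecg* (0.27) lie farthest to the right, and the 10 values of day 0 run from -0.13 to 0.09.

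On day 0 no member passed the test. By adjusted p and fold limit 0 of 10 were called (0.277% of all tested genes), and by adjusted p alone also 0 of 10 (0.416% of all genes; limma). At an unadjusted p under 0.05 2 of 10 were lower in Mct1f/fMb1Cre cells, where 5.04% of all tested genes were, *Ptpn6* (log2 fold change -0.13 ± 0.04 SE, adjusted p = 0.294) and *Fcrl1* (-0.10 ± 0.04 SE, adjusted p = 0.419; limma). *Cd22* stood at -0.06 ± 0.04 SE, *Siglecg* at -0.06 ± 0.05 SE and *Fcmr* at -0.04 ± 0.05 SE, all below 0 where day 3 was above it.

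Whether the difference between genotypes, sign included, changed from day 0 to day 3 was tested as an interaction in the same fit. A positive interaction does not by itself mean a difference of larger size on day 3. For *Ptpn6* the log2 fold change between genotypes was -0.13 on day 0 and 0.13 on day 3. By adjusted p alone 4 of 10 genes had a positive interaction, where 3.82% of all tested genes did, and 0 of 10 a negative one, where 5.61% did. With the fold limit 0 of 10 were called, where 3.23% of all genes were. The values were 0.49 ± 0.07 SE for *Fcmr* (adjusted p = 0.00344), 0.41 ± 0.06 SE for *Cd22* (adjusted p = 0.00319), 0.33 ± 0.06 SE for *Siglecg* (adjusted p = 0.0102) and 0.26 ± 0.06 SE for *Ptpn6* (adjusted p = 0.0239; limma). For *Fcmr*, *Cd22* and *Siglecg* the adjusted p stayed under 0.05 in all 18 alternatives that could change it. For *Ptpn6* it did so in 11 of 18, and in 4 of the 9 fits that left out 1 library. It was 0.0565 to 0.084 (limma) without either control library of day 3, control replicate 2 or Mct1f/fMb1Cre replicate 1 of day 0, or Mct1f/fMb1Cre replicate 2 of day 3. Without Mct1f/fMb1Cre replicate 2 of day 0, which leaves the *Ddx3y*-bearing library alone in that group, the interaction was 0.54 for *Fcmr*, 0.43 for *Cd22* and 0.39 for *Siglecg*. Without replicate 1, the *Ddx3y*-bearing library itself, the values were 0.44, 0.38 and 0.27. In that fit every library of day 0 was low in *Ddx3y* and every library of day 3 carried it. A genotype difference that changes with the day then cannot be told from one that changes with sex. The fit of all libraries does not separate these either, as the control libraries of day 0 were low in *Ddx3y*. The interaction and the day 3 comparison use the same libraries of day 3.

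*Cd79a*, the B cell marker that encodes a signalling chain of the antigen receptor, averaged 571 FPKM in control and 523 FPKM in Mct1f/fMb1Cre cells on day 3 (log2 fold change -0.13, adjusted p = 0.174; limma). The ratio of *Cd22* to *Cd79a* was 0.462 ± 0.009 in control and 0.644 ± 0.027 in Mct1f/fMb1Cre cells on day 3, after 0.231 ± 0.020 and 0.224 ± 0.006 on day 0 (SD, n = 2 or 3). Over all 9 libraries the gene most like *Cd22* was *Lat2*, an adaptor of antigen and Fc receptors (Pearson r = 0.993). For *Fcer2a* the most like were *Crybg3* (r = 0.992) and *Calu* (r = 0.988). For the other 8 members the likeness is set by the difference between the days, since 377 to 1567 genes had an r above 0.99 with each of them. *Fcer2a* followed the days as well, with an r of -0.957 to -0.933 with those 8 members. Its like genes rose too, *Crybg3* from 3.5 to 6.0 FPKM and *Calu* from 27.7 to 38.4 FPKM in control cells.

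Other genes of the pathway were counted from lists. Of all tested genes, for comparison, 33% fell and 24.8% rose on activation in control cells, and 33.2% fell and 23.4% rose in Mct1f/fMb1Cre cells. By adjusted p alone on day 3, 6.03% of all tested genes were higher and 9.21% lower in Mct1f/fMb1Cre cells. Of 14 other inhibitory receptors 11 passed the filter, and 10 of 11 fell in each genotype on activation, with a median log2 fold change of -2.17 in control and -2.07 in Mct1f/fMb1Cre cells. Examples are *Pirb*, an ITIM receptor for MHC class I, at -4.45 ± 0.09 SE and -4.10 ± 0.08 SE, *Cd300a*, which binds phospholipids, at -4.15 ± 0.10 SE and -4.51 ± 0.09 SE, and the collagen receptor *Lair1* at -2.76 ± 0.09 SE and -2.90 ± 0.08 SE, all 6 with adjusted p of 2.11e-10 or lower (limma). These receptors are also found on myeloid cells, whose 12 markers went from sums of 1232 to 2120 FPKM to sums of 48.0 to 64.2 FPKM between the same libraries, and the part of this in the decreases was not tested. The genes named next on day 3 were chosen after their values were seen. By adjusted p, 3 of 11 were higher in Mct1f/fMb1Cre cells, the ITIM receptors *Ceacam1* (0.45), *Pirb* (0.41) and *Pecam1* (0.34), and 2 of 11 lower, *Btla* (-0.22) and *Tnfrsf13b* (-0.20). Only *Ceacam1* passed the fold limit in the interaction (0.56 ± 0.09 SE, adjusted p = 0.00462; limma). *Pirb* was low on day 3, at 2.485 FPKM in control and 3.62 FPKM in Mct1f/fMb1Cre cells. The myeloid markers *Lyz2*, *Adgre1* and *Fcer1g* were also higher in Mct1f/fMb1Cre cells on day 3. Their part in the differences of these receptors was not tested.

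**Figure D5:**
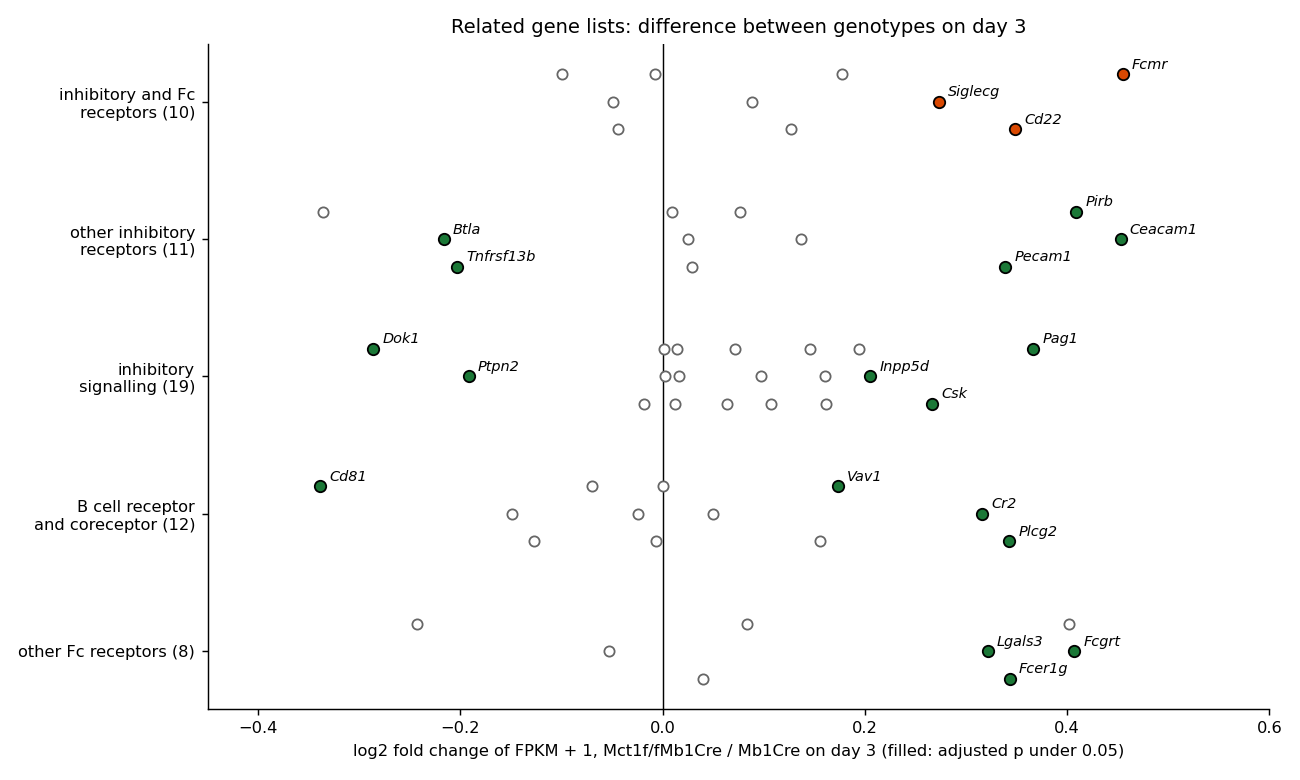
Log2 fold change of FPKM + 1 of Mct1f/fMb1Cre over Mb1Cre cells on day 3 for the 10 genes and for 4 related lists, with the number of tested genes in brackets. Each point is a gene, filled and named where the adjusted p was under 0.05, and vertical offsets within a list carry no value. Filled points lie on both sides of 0 in 3 of the 4 related lists, and the 3 filled members are all above 0.

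The signalling molecules below the receptors moved in both directions. Of 19 inhibitory signalling genes 11 fell in each genotype on activation, with a median of -0.89 in control and -0.67 in Mct1f/fMb1Cre cells. The adaptor *Dok3* fell by 3.59 on the log2 scale in control cells, the ubiquitin ligase *Cblb* by 2.75 and the phosphatase *Ptpn22* by 2.19. In control cells 1 of 19 was called as higher, *Ptpn2* (0.55 ± 0.05 SE, adjusted p = 2.17e-06; limma), where 24.8% of all tested genes were, and in Mct1f/fMb1Cre cells 0 of 19, where 23.4% were. On day 3, 3 of 19 were higher in Mct1f/fMb1Cre cells by adjusted p, *Pag1* (0.37) and *Csk* (0.27), which together hold Src-family kinases in check, and *Inpp5d* (0.21), the gene for SHIP-1. Another 2 of 19 were lower, *Dok1* (-0.29) and *Ptpn2* (-0.19), and these 5 were likewise named after their values were seen.

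On the activating side, 9 of 12 genes of the B cell receptor and its coreceptor fell in each genotype. The largest decreases were those of the complement receptor *Cr2* (-5.41 and -5.12), the kinase *Blk* (-3.24 and -3.21) and the kinase *Syk* (-2.71 and -2.64). On day 3, 3 of 12 were higher in Mct1f/fMb1Cre cells by adjusted p, *Plcg2* (0.34), *Cr2* (0.32) and *Vav1* (0.17), and 1 of 12 lower, *Cd81* (-0.34), all named after their values were seen. *Cd81* and *Cr2* encode subunits of the same coreceptor.

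Of 12 other Fc receptors 8 passed the filter. In control cells 7 of 8 fell, among them *Fcgrt*, the receptor that recycles IgG (-4.08 ± 0.08 SE), the signalling chain *Fcer1g* (-3.64 ± 0.09 SE) and *Fcgr3* (-3.43 ± 0.15 SE), and 1 of 8, *Fcrls*, was called as higher (0.87 ± 0.21 SE, adjusted p = 0.00222; limma). Its 2 control libraries before activation read 0.74 and 0 FPKM, with a mean of 1.41 FPKM after it, and the value was 0.47, under the fold limit, without control replicate 2 of day 0 and 1.27 without replicate 1. In Mct1f/fMb1Cre cells 6 of 8 fell and *Fcrls* again rose. *Fcer1g* and *Fcgr3* are abundant in myeloid cells, and *Fcer1g* is itself on the list of myeloid markers that fell by day 3. For the ligands, 8 of 9 listed immunoglobulin heavy chain and J chain genes were not analysed here. The 9th, *Jchain*, which joins polymers of IgM and IgA, read 62.3 and 77.9 FPKM in control and 160 and 117 FPKM in Mct1f/fMb1Cre cells on day 0, and averaged 121 and 87.4 FPKM on day 3. It was higher in Mct1f/fMb1Cre cells on day 0 (0.97 ± 0.15 SE, adjusted p = 0.0193; limma) and had a negative interaction (-1.44 ± 0.20 SE, adjusted p = 0.00246; limma).

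Genes for the sialic acid bound by CD22 and Siglec-G and for the CD72 ligand moved in both directions. Of these 13 genes 3 rose and 7 fell in control cells, and 3 rose and 5 fell in Mct1f/fMb1Cre cells, counts that for the increases lie near the shares of all genes given with the lists. The sialic acid synthase *Nans* rose by 1.35 and 1.31 on the log2 scale and *St6gal1*, the enzyme that makes the linkage CD22 prefers, by 0.69 and 0.78. *St3gal1* fell by 3.17 and 2.82, and *Sema4d* by 1.12 in control cells. Among 8 genes of CD23 shedding, 2 rose and 6 fell in control cells and 1 rose and 6 fell in Mct1f/fMb1Cre cells. *Adam10*, the main CD23 sheddase, had a mean of 36.9 FPKM before activation and of 20.6 FPKM after it in control cells, and of 22.1 FPKM after it in Mct1f/fMb1Cre cells. *Tspan33*, a tetraspanin partner of ADAM10, was lower in Mct1f/fMb1Cre cells on day 3 (1.20 against 0.427 FPKM, -0.63 ± 0.09 SE, adjusted p = 0.00133; limma), both levels being low.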

How the data were processed

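RNA from primary splenic B cells of 4 groups, given by genotype and day in the labels, was sequenced as 9 libraries. The authors deposited FPKM for 17596 genes, with 2 decimals and 1 value per gene and library. The sequencing institute (BGISEQ) made these values, and the submitters' processing notes list Bowtie2 and GRCm38 (mm10), whereas the counter, the annotation and the use of strand are not given in the sources used here. The labels and the study's methods name different RNA extraction reagents. Depth is unknown, so precision rests on 2 or 3 libraries per group.

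The 10823 genes that averaged 1 FPKM or more were tested on log2(FPKM + 1). All 9 libraries entered the same fit of group means in limma (version 3.58.1, run in R version 4.3.3), with a trend in the empirical Bayes prior and Benjamini-Hochberg adjustment over all tested genes. To be called, a gene had to pass 0.05 in the adjusted p and 0.5 in the size of its log2 fold change. The scripts were tested on simulated data. Standard deviations are given as SD, and standard errors from limma as SE. Promoter windows came from RefSeq (10 of 10 genes matched, 13 windows), and gene positions and transcripts from GENCODE on GRCm38. Likeness was Pearson's r of log2(FPKM + 1). The alternatives were other pseudocounts, filters, scalings, fold limits and fits, a replicate block, and leaving out each library.

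The 10 genes and the gene lists were chosen with earlier results of these data known. Named were the 10 genes, up to 3 called genes with the largest change per list and direction (all where 5 or fewer were called), the most abundant markers and the 2 genes most like each member. Outside this rule, *Pigr*, *Tesk1* and *Adam10* were named for their position or role, and others are marked as such in the text. Some genes of the lists and of the likeness search are not reported here, and list counts leave them out.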

Additional observations from a re-analysis of the deposited data

Results flagged for a closer look

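For 4 of the 10 genes the difference between genotypes was not the same on the 2 days, by the interaction term of the fit across all genes (limma, adjusted p under 0.05). The interaction on the log2 scale was 0.491 for *Fcmr*, 0.405 for *Cd22*, 0.331 for *Siglecg* and 0.258 for *Ptpn6*. In each case the estimate was below 0 on day 0 and above 0 on day 3. For *Ptpn6* neither day passed the test alone (adjusted p = 0.294 on day 0 and 0.0583 on day 3; limma), and leaving out single libraries took the adjusted p of its interaction to 0.084. No group held enough libraries for a test of outliers.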

How the results depend on the processing

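On activation the count of called members stayed at 7 to 10 in both genotypes under every alternative. On day 3 the count of 0 became 3 without the fold limit and was 0 to 1 when libraries were left out, the 1 being *Fcmr* without Mb1Cre replicate 1 of day 3. The interaction count of 0 became 1 with a pseudocount of 0.1, after scaling to the same total and with the replicate block, 4 without the fold limit, and was 0 to 1 when libraries were left out, the 1 being *Fcmr* without replicate 2 of either genotype on day 0, control replicate 1 or Mct1f/fMb1Cre replicate 3 on day 3. The cause was not tested. Directions turned for values near 0: *Cd22* on activation of Mct1f/fMb1Cre cells (0.097, median of ratios), *Fcgr2b* on day 3 (0.0042 same total, 0.010 median of ratios, 0.012 quantile; -0.057 to 0.041 with libraries left out), *Fcgr2b* on day 0 (-0.0073 same total; -0.0095 to 0.019), *Fcgr2b* in the interaction (0.011 same total, 0.0073 quantile; -0.062 to 0.036) and *Fcamr* in the interaction (-0.061 with a pseudocount of 0.1, -0.0022 median of ratios; -0.060 to 0.069). With libraries left out, day 0 values ran from -0.12 to 0.0017 for *Siglecg*, from -0.087 to 0.013 for *Fcmr* and from -0.12 to 0.011 for *Fcamr*, and the interaction of *Fcer2a* from -0.059 to 0.063. A mean of at least 5 FPKM removed *Fcamr*.

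Scaling moved the split of all calls on activation: 42.9% were higher in control cells as deposited, 31.8% after scaling to the same total, 55.7% after median of ratios and 51.6% after quantile normalization (41.4%, 31.6%, 55.2% and 52.2% in Mct1f/fMb1Cre cells), and the median of all genes moved from -0.12 to -0.31, 0.07 and 0.02 in control cells. Same-numbered libraries did not deviate together (correlations of -0.122 to 0.064). With the replicate block, which leaves the third Mct1f/fMb1Cre library of day 3 without weight, 6261 genes were called on activation of control cells, 262 on day 3 and 274 in the interaction, against 6258, 262 and 350. Crossing the numbers of the control libraries of day 0, chosen after seeing the data, gave 6264. Settings that changed the number of genes called over 1.5 times were a pseudocount of 0.1 on day 3 (421) and of 5 on day 3 (120) and in the interaction (156), fits on the 2 groups alone (2 against 30) and no filter (13) on day 0, a fold limit of 1 (3191 and 2994 on activation, 54 on day 3, 16 on day 0, 56 in the interaction), no fold limit (9258 on activation of Mct1f/fMb1Cre cells, 1650 on day 3, 1020 in the interaction), and day 0 without Mb1Cre replicate 2 (101) or Mct1f/fMb1Cre replicate 2 (67). Limits of depth could not be given, and effects smaller than the spread of 2 or 3 libraries were not detectable.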
